A study of Mus musculus with 9 samples.

Results

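The genes described here encode the nuclear subunits of the mitochondrial respiratory chain and of the ATP synthase in mouse testis. They were chosen by name, as the protein-coding genes of the deposited table whose symbols begin with Nduf followed by a, b, c, s or v and a number (complex I, 37 genes), are Sdha to Sdhd (complex II, 4 genes), or begin with Uqcr (complex III, 8 genes), Cox4 to Cox8 (complex IV, 18 genes) or Atp5 (ATP synthase, 17 genes). This gave 84 of the 38674 genes in the table, 21019 of which are protein-coding. The symbols do not follow function in every case: Ndufa4 is now placed with complex IV, Cox7a2l encodes an assembly factor of respiratory supercomplexes, and Atp5sl carries the newer symbol Dmac2 in RefSeq, a factor for the assembly of the membrane arm of complex I. RNA was taken from whole testes of male C57BL/6 mice of 3 genotypes, 3 animals each, namely Pfn3 wild type (WT), heterozygous (Het) and knockout (KO). Profilin 3 is an actin-binding protein of spermatids, and the mutation is a germline CRISPR/Cas9 deletion carried by all cells. The labels name neither the deletion line nor the age of the animals.

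Complex I passes electrons from NADH, and complex II from succinate, to ubiquinone. Complex III then passes them to cytochrome c and complex IV to oxygen, while complexes I, III and IV pump protons that drive the ATP synthase. Each complex except complex II also holds subunits encoded by mitochondrial DNA. Male germ cells differ from other cells in that they replace several nuclear subunits by testis forms, among them COX6B2, COX7B2 and COX8C of complex IV and the testis cytochrome c encoded by Cyct, and the mitochondria of spermatids end up in the sheath around the sperm mid-piece.

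Libraries were made with a QuantSeq 3′ kit, so that reads start close to the polyadenylated ends of transcripts. The deposited values are counts per gene divided by 1 size factor per animal (normalized counts). The counts recovered from them summed to 3375546 to 4287335 per library, and 3 counts, taken as the limit of detection for counting error only, correspond to 2.58 to 3.71 normalized counts. The targeted gene itself, Pfn3, had 592, 383 and 373 normalized counts in WT, 136, 339 and 326 in Het, and 74.7, 215 and 279 in KO. It was lower in each KO than in each WT animal (log2 fold change −1.41, standard error, SE, 0.52, limma adjusted p = 0.610), while KO and Het animals overlapped. In the sequence alignments of the study, the deletion lines keep the 3′ end of the coding sequence. Where the Pfn3 reads lie was not tested. WT replicate 1 stood apart from the other 8 libraries: 21.0% of 14865 genes lay over 2-fold below their median of the 9 animals in it and 6.30% lay over 2-fold above, and Het replicate 1 came next with 11.8% below. Since whole testes were sequenced, fewer cells of a type and less RNA per cell cannot be told apart.

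Among the 84 genes, 23 had a mean over 1000 normalized counts across the 9 animals and 3 had a mean under 10. The gene with the highest mean was Cox8c, the testis form of COX8, at 3695 normalized counts, followed by Uqcrq, a small subunit of complex III, at 3507. The highest in the other complexes were Ndufb8 of the membrane arm of complex I at 1779.9, Atp5b, the catalytic beta subunit of the ATP synthase, at 1484, and Sdhb, the iron-sulfur subunit of complex II, at 1054. Over the 9 animals Uqcrq ranged from 2811 to 4215 and Cox8c from 3343 to 4128, so their order was not the same in every animal, while Ndufb8 did not exceed 2446. These are counts of 3′ reads, which were not divided by transcript length. At the other end, Cox4i2 was at 0 in all 9 libraries, which allows up to 3.71 normalized counts. Cox8b, a muscle form, had 0.965 in WT replicate 2 and 0 elsewhere, and Cox6a2, also a muscle form, had 17.0, 4.23 and 6.87 in Het replicate 1, Het replicate 3 and KO replicate 1 and 0 elsewhere. These 3 genes did not pass the filter on low values, and 81 of the 84 were tested in KO against WT.

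The genes share features that the choice by name did not use. Their transcripts were short, with a median of 861 bases for the 81 genes compared with 2948 bases for 12697 protein-coding genes. These 12697 genes reached 10 normalized counts in 3 or more of the 9 libraries. The last 300 bases of the 81 genes had a median GC content of 47.3% compared with 42.3%. Their level was higher, with a median of 600.4 compared with 76.4 normalized counts. By symbol or synonym, all 84 were matched to RefSeq genes of GRCm38.p6, and 69 of them have a promoter window of 300 bases (250 before to 50 after the start) in the RefSeq set, against 27025 genes in all. Letters of the motifs of nuclear factors known for respiratory genes were searched on both strands. CGCATGCG, the core of the NRF1 motif, was found in windows of 9 of 69 genes (13.0%) and of 2.07% of all genes. CCGGAA, the core of the ETS motif read by GABPA (NRF2), was found for 26 genes (37.7%) and 16.7% of all genes, and AAGATGGCG, the YY1 motif, for 8 genes (11.6%) and 1.64% of all genes. TGACGTCA, the cAMP response element, was found for 4 genes (5.80%) and 2.03% of all genes, while GGGCGG, the SP1 box, was about as frequent in both, at 40.6% and 38.2%. Any of the first 3 motifs was present for 34 of the 69 genes (49.3%) and for 19.1% of all genes. The windows of these genes are also richer in CpG, with a median of 19 CpG compared with 7 for all windows, so these shares are not matched for base composition. A match is a stretch of letters and not a shown binding site.

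The promoter windows of the COX6B and COX7B pairs are shown because the members of a pair differ in their tissue range, and that of Ndufa11 because it holds a pair of these motifs and because Ndufa11 was among the lowest genes in both mutant groups. They are RefSeq sequences of GRCm38.p6, written 5′ to 3′ on the strand of the gene, with motif matches in capitals. Cox6b1 (chr7:30626065-30626364, minus strand) has 1 ETS match on the opposite strand starting 27 bases before the start site. Cox6b2 (chr7:4753045-4753344, minus strand) and Cox7b2 (chr5:71548156-71548455, minus strand) each have a single SP1 box, and Cox7b (chrX:106015450-106015749, plus strand) has none of the 5 motifs. Ndufa11 (chr17:56717512-56717811, plus strand) has a cAMP response element starting 158 bases and an NRF1 core starting 59 bases before the start site. None of the promoters of the 2 testis forms held an NRF1, ETS or YY1 match in this window.
Cox6b1: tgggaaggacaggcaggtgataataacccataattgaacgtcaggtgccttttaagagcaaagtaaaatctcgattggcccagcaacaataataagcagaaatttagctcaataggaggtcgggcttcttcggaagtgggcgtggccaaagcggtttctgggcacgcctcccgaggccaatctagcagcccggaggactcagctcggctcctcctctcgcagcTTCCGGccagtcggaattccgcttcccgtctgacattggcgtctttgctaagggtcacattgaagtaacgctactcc
Cox6b2: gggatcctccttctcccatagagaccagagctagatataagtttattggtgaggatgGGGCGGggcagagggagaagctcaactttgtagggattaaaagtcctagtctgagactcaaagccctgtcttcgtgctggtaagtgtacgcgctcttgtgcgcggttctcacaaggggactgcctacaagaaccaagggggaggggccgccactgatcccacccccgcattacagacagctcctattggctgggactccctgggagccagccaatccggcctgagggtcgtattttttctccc
Cox7b: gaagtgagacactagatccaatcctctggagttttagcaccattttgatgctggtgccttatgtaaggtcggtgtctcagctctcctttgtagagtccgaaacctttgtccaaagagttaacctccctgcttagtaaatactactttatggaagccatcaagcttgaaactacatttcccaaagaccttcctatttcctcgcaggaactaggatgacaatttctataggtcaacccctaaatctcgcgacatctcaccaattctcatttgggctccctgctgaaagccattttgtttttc
Cox7b2: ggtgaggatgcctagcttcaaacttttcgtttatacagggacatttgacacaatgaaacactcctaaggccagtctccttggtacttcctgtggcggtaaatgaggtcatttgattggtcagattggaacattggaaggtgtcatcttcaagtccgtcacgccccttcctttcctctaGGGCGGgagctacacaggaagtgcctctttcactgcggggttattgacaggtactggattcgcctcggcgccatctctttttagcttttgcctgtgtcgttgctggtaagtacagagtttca
Ndufa11: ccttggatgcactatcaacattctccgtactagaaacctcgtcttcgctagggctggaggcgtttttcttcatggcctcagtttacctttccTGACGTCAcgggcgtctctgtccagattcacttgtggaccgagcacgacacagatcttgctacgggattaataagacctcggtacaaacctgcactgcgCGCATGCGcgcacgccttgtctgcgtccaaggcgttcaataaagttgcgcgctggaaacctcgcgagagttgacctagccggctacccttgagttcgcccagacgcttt

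For each pair, the share of the testis form in the summed normalized counts of the pair was computed per animal. Cox8c made up 92.4% ± 0.71 of the COX8 pair in WT, 93.7% ± 1.08 in Het animals and 93.1% ± 0.43 in KO animals (SD, n = 3 for each genotype). Cox7b2 made up 91.1% ± 0.62 of the COX7B pair in WT, 90.0% ± 0.98 in Het and 91.8% ± 1.28 in KO. The share of Cox6b2 was lower, at 77.1% ± 9.36 in WT, 77.6% ± 4.90 in Het and 70.2% ± 3.15 in KO. The testis and somatic forms were thus read in the same tissue with the testis form in excess for all 3 subunits in each animal. Cyct made up 54.6% ± 19.0 of the cytochrome c pair in WT, with 32.7% in WT replicate 1 and 67.5% as the highest of the others, 67.6% ± 1.13 in Het and 67.3% ± 3.80 in KO. Cox7a1, a muscle form, made up 3.20% ± 1.82 of the COX7A pair in WT, 1.16% ± 1.01 in Het and 2.03% ± 0.80 in KO. None of the 10 differences of a mutant group from WT passed an exact two-sided permutation test (lowest p = 0.1, the smallest that 3 against 3 animals allow, and lowest adjusted p = 0.5).

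Of the 3 testis forms of complex IV, Cox6b2 (chromosome 7, 4751792 to 4753094) was the one whose KO animals did not overlap the WT animals. It had 1879, 831 and 890.2 normalized counts in WT, 923, 914 and 1182 in Het, and 733, 632 and 701 in KO. All 3 KO animals lay below all WT and all Het animals. The KO to WT log2 fold change was −0.70 (SE 0.34, limma adjusted p = 0.615), and it was −0.32 without WT replicate 1, the animal with the highest value. The ubiquitous Cox6b1 overlapped between all genotypes, with 266, 362 and 313 in WT, 283, 332 and 242 in Het, and 302, 313 and 258 in KO. Cox7b2 had 784, 1689 and 1439 in WT, 2348, 1207 and 1634 in Het, and 2586, 1528 and 2165 in KO, which is 0.72 higher in KO than in WT on the log2 scale (SE 0.35, limma adjusted p = 0.615) and 0.39 higher without WT replicate 1, with overlapping groups. Its somatic counterpart Cox7b, on the X chromosome, had 83.0, 159 and 132 in WT, 239, 151 and 175 in Het, and 205, 163 and 177 in KO, where the KO animals lay above the WT animals. Cox8c varied least of the testis forms, with 4049, 3430.4 and 3624 in WT, 4128, 3641 and 3574 in Het, and 3343, 3901 and 3569 in KO. So the testis forms of complex IV did not share a direction in KO against WT.

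**Figure D1:**
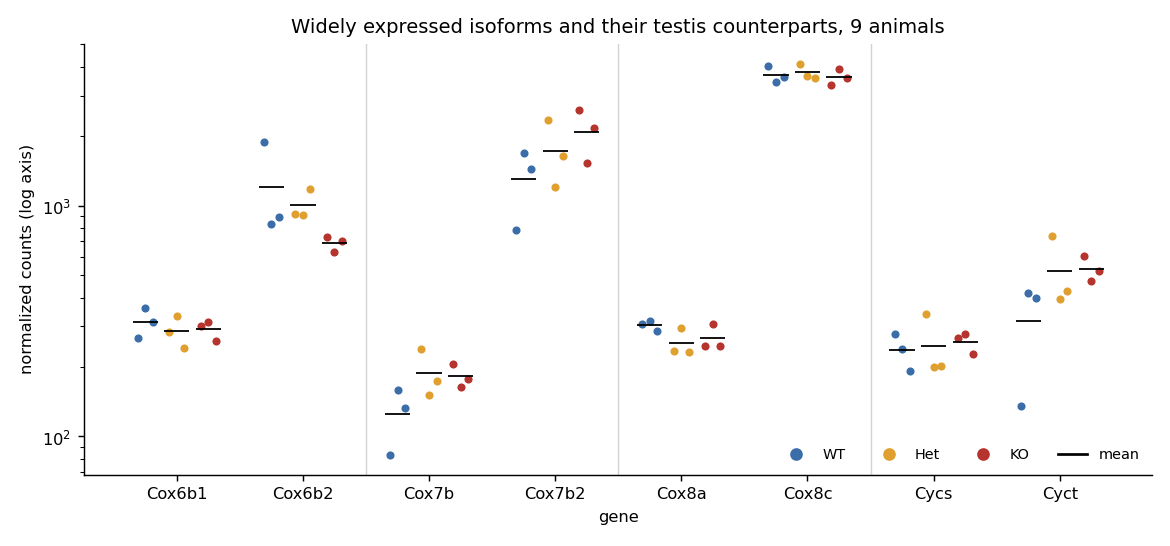
Normalized counts on a log axis of 4 somatic isoforms and the testis counterpart to the right of each, with 1 point per animal (3 each of WT, Het and KO) and a bar at the group mean. The Cox8c points lie between 3343 and 4128 in all genotypes, and the 3 KO points of Cox6b2 (632 to 733) lie below all other Cox6b2 points.

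KO and WT animals were compared to see whether loss of Pfn3 went with a change in these transcripts. The cutoffs had the values of the study, an adjusted p-value under 0.05 with an absolute log2 fold change over 1.5. The study applied them to DESeq2 results, and here they were applied to limma results. None of the 81 tested genes passed them, where 5 of 14223 genes did (0.0352%, also without the fold change cutoff), and the smallest adjusted p-value among the 81 was 0.610. The Wald test of DESeq2 and the quasi-likelihood test of edgeR on the recovered counts also called 0 of the 81 genes. At an unadjusted p-value under 0.05 there were 4 genes (4.94%), all lower in KO, compared with 8.07% of all genes, 3.04% higher and 5.03% lower. The median SE of their log2 fold changes was 0.26. The median log2 fold change of the 81 genes was −0.13, compared with 0.02 for all genes tested, and 30 genes (37.0%) had a log2 fold change above 0, compared with 51.4% of all genes. With total counts per library used for scaling, all genes together had a median of 0.22, and that of the 81 genes was 0.07, with 50 above 0. The genes thus lay below the median of all genes under both scalings, while the sign of their own median depended on the scaling. Which genes had an unadjusted p-value under 0.05 also depended on it. With total counts these were 5, namely Ndufv3, Atp5f1, Cox7b2, Ndufc2 and Cox7b, compared with 9.31% of all genes. All of them but Ndufv3 were higher in KO than in WT in the main fit.

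The 4 genes at an unadjusted p-value under 0.05 in the main fit all belong to complex I or are named after it. Ndufv3 (chromosome 17, 31520115 to 31531331), a small subunit of the NADH-binding module, had 532, 529 and 481 normalized counts in WT, 282, 496 and 325 in Het, and 396, 256 and 309 in KO. The KO to WT log2 fold change was −0.70 (SE 0.22, limma adjusted p = 0.610), and the lowest WT animal lay above the highest KO animal. Ndufb7 (chromosome 8, 83566671 to 83571626), an accessory subunit of the membrane arm, had 834, 671 and 497 in WT, 279, 494 and 337 in Het, and 496, 328 and 405 in KO, a log2 fold change of −0.69 (SE 0.27, limma adjusted p = 0.610). The lowest WT and the highest KO animal of Ndufb7 were nearly equal. Ndufa11 (chromosome 17, 56717767 to 56722141), also of the membrane arm, had 662, 518 and 389 in WT, 246, 402 and 283 in Het, and 326, 314 and 316 in KO, which are close to each other and below all WT animals. Ndufa4l2, a paralog of Ndufa4 known to be induced by hypoxia, had 71.8, 55.0 and 77.2 in WT, 0, 71.7 and 39.2 in Het, and 27.5, 54.2 and 39.3 in KO (log2 difference −0.78, SE 0.32, limma adjusted p = 0.610).

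Complex I as a whole had 27 of 37 genes lower in KO than in WT, with a median log2 fold change of −0.23. The KO animals lay below the WT animals without overlap for 9 of the 81 genes (11.1%), compared with 10.5% of all genes, and above them for 1 gene, Cox7b (1.23%), compared with 9.41%. Of these 9, 8 were Nduf genes: Ndufv3, Ndufb7, Ndufa11 and Ndufa4l2, and, named here after their values were seen, Ndufa13, Ndufb5, Ndufs6 and Ndufs7, with Cox6b2 as the other. The lowest fold change belonged to Ndufa9, a subunit at the joint of the matrix and membrane arms, with 649, 584 and 441 in WT, 331, 466 and 386 in Het, and 129, 439 and 465 in KO. The KO to WT log2 fold change was −0.89 (SE 0.52, limma adjusted p = 0.637). It was −0.29 when KO replicate 1, the single low animal, was left out.

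The highest log2 fold changes in KO against WT rested on single libraries. In all, 3 genes (3.70%) had an absolute value over 1 on this scale, compared with 14.5% of all genes. Cox7c (chromosome 13, 86044816 to 86046904), a small subunit of complex IV, had 137, 2051 and 1695 in WT, 1436, 1604 and 1961 in Het, and 2533, 1508 and 2106 in KO. Without WT replicate 1 its log2 fold change went from 1.35 to 0.10. Ndufa1, an X-linked subunit of the membrane arm of complex I, had 17.3, 325 and 339 in WT, 216, 376 and 259 in Het, and 395, 292 and 248 in KO. The log2 fold change of Ndufa1 went from 1.28 to −0.12 without that animal. Sdhc, a membrane anchor of complex II, had 44.6, 395 and 343 in WT and 327 to 381 in KO, and its value of 0.93 became −0.08. Atp5sl (Dmac2), with 288, 4.82 and 6.76 in WT, 8.5, 8.38 and 187 in Het, and 141, 189.6 and 164 in KO, was the exception in that leaving out WT replicate 1 raised its log2 fold change from 2.81 (SE 1.47, limma adjusted p = 0.617) to 4.62 (limma adjusted p = 0.00709). It was the only one of the 81 genes to pass the cutoffs without that animal, where 49 genes of all passed, and its adjusted p-value was 0.539 to 0.877 under the other alternatives that returned a value. On the recovered counts, where the fold change is that of group means, the DESeq2 value was 0.73.

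The other complexes, II, III, IV and the ATP synthase, had median log2 fold changes in KO against WT of 0.38 (4 genes), 0.09 (8 genes), −0.04 (15 genes) and 0.08 (17 genes). Without WT replicate 1 these were 0.056, −0.076, −0.084 and −0.013, and that of complex I was −0.19. In complex II the catalytic flavoprotein gene Sdha (183, 156 and 111 in WT, 121, 141 and 135 in KO) and Sdhb (1611, 1124 and 829 in WT, 1168, 923 and 1046 in KO) overlapped between the groups. The second membrane anchor, Sdhd, was the lowest of the complex, with 4.95, 0 and 22.2 in WT, 42.5, 41.9 and 27.5 in Het, and 38.7, 0 and 21.4 in KO. In the ATP synthase, Atp5b had 1116, 1619.7 and 1455 in WT and 1479, 1534 and 1551 in KO, a log2 fold change of 0.14 (SE 0.19, limma adjusted p = 0.764). Uqcrq of complex III had 3865, 4215 and 3545 in WT and 3923, 2955 and 3459.6 in KO, a log2 fold change of −0.18 (SE 0.16, limma adjusted p = 0.686).

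Ordered by the parts of complex I, 4 genes of the catalytic matrix arm are given first. Ndufv1, the flavin-binding subunit, had 877, 554 and 493 normalized counts in WT, 589.6, 561 and 581 in Het, and 554, 592 and 592 in KO, a log2 fold change of −0.10 in KO against WT (SE 0.25, limma adjusted p = 0.880). Ndufs1, with 318, 351 and 302 in WT, 499.8, 310.1 and 305 in Het, and 349.6, 356 and 383 in KO, had 0.17 (SE 0.17, limma adjusted p = 0.701). Ndufs7, which holds the last iron-sulfur cluster before ubiquinone, had 390.0, 248 and 211 in WT, 133, 213 and 189 in Het, and 192, 167 and 189 in KO. All KO animals lay below all WT animals for Ndufs7, and WT replicate 1 was the highest. Ndufs8 had 271, 229.6 and 171 in WT, 87.9, 193 and 143 in Het, and 176, 173 and 164 in KO, where the groups overlap. Of the accessory subunits of the membrane arm, Ndufb8 had 2446, 2172 and 1678 in WT, 1369, 1012 and 1834 in Het, and 1993, 1695 and 1819.6 in KO. Ndufb3 had 87.9 in WT replicate 1 and 352 to 555 in the other 8.

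In complex III, the core proteins Uqcrc1 and Uqcrc2 had log2 fold changes of −0.30 and 0.63 in KO against WT, and of −0.13 and 0.0091 without WT replicate 1. Uqcrc1 had 1377, 1076 and 890.2 in WT, 556, 878 and 762 in Het, and 898, 804 and 983 in KO, and Uqcrc2 had 91.6, 326 and 339.9 in WT, 268, 312 and 244 in Het, and 437, 286 and 300.3 in KO. WT replicate 1 was the highest animal for Uqcrc1 and the lowest for Uqcrc2. The Rieske iron-sulfur protein gene Uqcrfs1 had 241 in the same animal and 547 to 776 in the other 8. In complex IV, the widely expressed Cox5a, which binds near the catalytic core, had 1671, 1939 and 1979 in WT, 2727, 1841 and 2173 in Het, and 1738, 1851 and 1961 in KO, a log2 fold change of −0.01 in KO against WT (SE 0.15, limma adjusted p = 0.987). Cox6a1 had 1539, 1263 and 1156 in WT, 1123, 1222 and 1098 in Het, and 1168, 1300.2 and 1122 in KO. In the ATP synthase, the stalk subunit gene Atp5o had 1631, 1383 and 1185 in WT, 1159, 1226 and 1302 in Het, and 1272, 1187 and 1329.8 in KO, and the gamma subunit gene Atp5c1 had 713, 849.9 and 627 in WT, 1015, 646 and 770.4 in Het, and 833, 790.4 and 865 in KO. Groups overlapped for each of these genes of complexes III, IV and the ATP synthase in KO against WT. Ndufv1, Ndufs1, Ndufs7, Ndufs8, Ndufb3, Uqcrc1, Uqcrc2, Uqcrfs1, Cox5a, Atp5o and Atp5c1 were named after their values were seen.

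**Figure D2:**
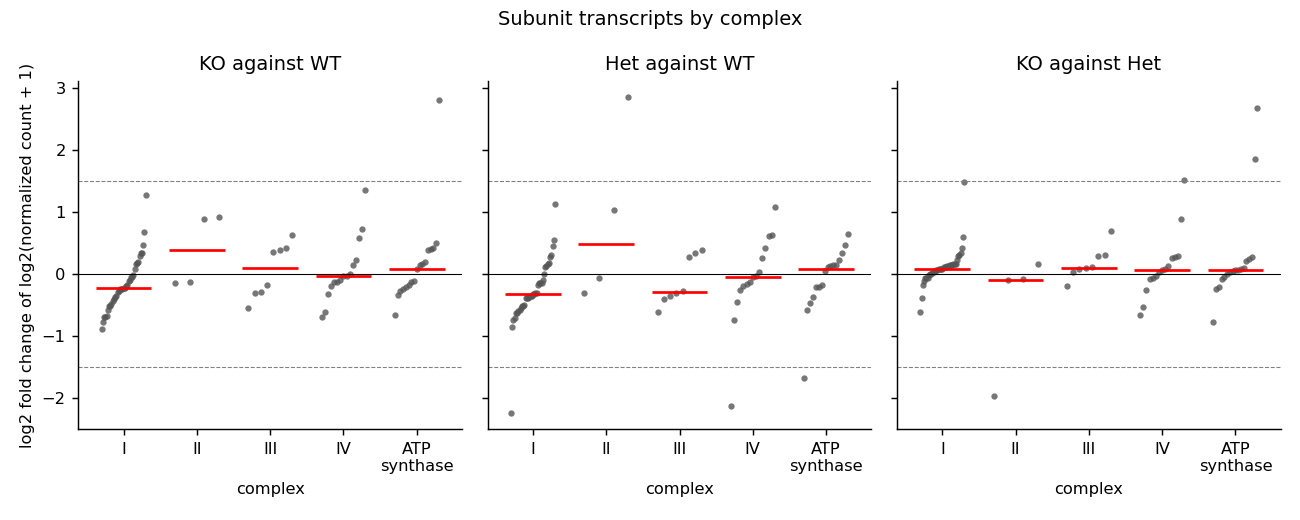
Log2 fold changes (on log2 of normalized count + 1) of the tested subunit genes, 1 point per gene, sorted within each complex, in the 3 comparisons of genotypes, with a red bar at the median of the complex and dashed lines at 1.5 in either direction. In KO against WT the complex I median is −0.23 and the highest point is Atp5sl at 2.81.

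Het and WT animals were compared to see whether 1 mutant allele went with a difference, using the same WT animals. None of the 80 tested genes passed the cutoffs in limma, and 0 of 14216 genes did (0%), also without the fold change cutoff. DESeq2 called 31 and edgeR 0 of all genes, and neither called any of the 80. At an unadjusted p-value under 0.05 there were 3 of the 80 (3.75%), compared with 3.34% of all genes, namely Ndufb7 and Ndufa11 lower (1.89% of all genes) and Sdhd higher (1.46% of all genes). Ndufb7 had a log2 fold change of −0.86 (SE 0.30, limma adjusted p = 0.779) and Ndufa11 of −0.75 (SE 0.29, limma adjusted p = 0.779). Without both WT replicate 1 and Het replicate 1 these were −0.50 and −0.41. Sdhd had a log2 fold change of 2.86 (SE 1.12, limma adjusted p = 0.779), from values of at most 42.5 normalized counts.

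As in KO, 27 of 37 complex I genes were lower in Het than in WT, with a median of −0.33, and the median of all 80 genes was −0.18, compared with 0.01 for all genes tested. These comparisons share their WT animals, so a like direction is not independent. Of the 80 genes, 30 (37.5%) were above 0, compared with 50.5% of all genes. With total counts per library the median of the 80 genes was −0.02 and that of all genes 0.16. Groups did not overlap for 4 genes lower in Het (6.49% of all genes), which were Ndufb7, Uqcrq and, named after their values were seen, Ndufa10 and Uqcrc1, and for 2 higher genes (6.76% of all genes), which were Sdhd and Atp5s, named as a coupling factor of the ATP synthase. Atp5s had 75.5, 135 and 129 in WT and 178, 169 and 167 in Het (log2 difference 0.64, SE 0.28, limma adjusted p = 0.779). An absolute log2 fold change over 1 was seen for 7 genes (8.75%), compared with 13.6% of all genes. Of these, Cox7c, Ndufa1 and Sdhc had their low value in WT replicate 1, and Cox7a1 and Ndufa4l2 had theirs in Het replicate 1, at 0 and 0. Atp5d was low in Het replicate 1 (11.3), Het replicate 3 (38.1) and WT replicate 1 (23.5). The log2 fold change of Atp5d was −1.69, and −2.04 without both WT replicate 1 and Het replicate 1.

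KO and Het animals share their samples with both comparisons above. None of the 81 genes passed the cutoffs, compared with 8 of 14343 genes (0.0558%, the same by adjusted p-value alone), and the smallest adjusted p-value was 0.973. An unadjusted p-value under 0.05 was found for 2 genes, both lower in KO (2.47%), compared with 3.56% of all genes, 1.74% higher and 1.82% lower. These were Cox6b2, given above (log2 difference −0.54, SE 0.16, limma adjusted p = 0.973), and Ndufa5, a subunit of the matrix arm of complex I. Ndufa5 had 2352, 719 and 678 in WT, 979.8, 1339 and 1091 in Het, and 686, 871 and 661 in KO, with a log2 fold change of −0.62 (SE 0.18, limma adjusted p = 0.973). Both were also the 2 genes (2.47%) whose KO animals lay below the Het animals without overlap, compared with 4.90% of all genes, and 1 gene (1.23%), Uqcrh, the hinge subunit of complex III, lay above, compared with 5.12%. Uqcrh had 1018, 393 and 945 in Het and 1158, 1243 and 1098 in KO. The median log2 fold change of the 81 genes was 0.08, 57 genes (70.4%) were above 0 compared with 49.7% of all genes, and 5 genes (6.17%) had an absolute log2 fold change over 1, compared with 9.61%.

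As a share of all recovered counts, which no size factor touches, the 84 genes took a mean of 1.62% ± 0.10 (SD, n = 3) in WT, 1.63% ± 0.08 in the Het animals and 1.75% ± 0.08 in the KO animals. Complex I took 0.641% ± 0.061, 0.577% ± 0.024 and 0.627% ± 0.038 in this order. Complex IV took 0.355%, 0.457% and 0.427% in WT, 0.566%, 0.440% and 0.461% in Het, and 0.520%, 0.499% and 0.482% in KO, so that all KO animals lay above all WT animals and the Het animals spanned both. The share is a sum that a few genes set, and in complex IV the single low WT animal is the one with 137 normalized counts of Cox7c. A share is scaled by total counts. With that scaling the median of all genes tested lay 0.22 higher in KO than in WT on the log2 scale, and that of the 81 subunit genes 0.07 higher. The higher complex IV share in KO therefore includes a shift seen across all genes, and a rise beyond that shift was not tested. The shares of all 5 complexes were given no test.

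**Figure D3:**
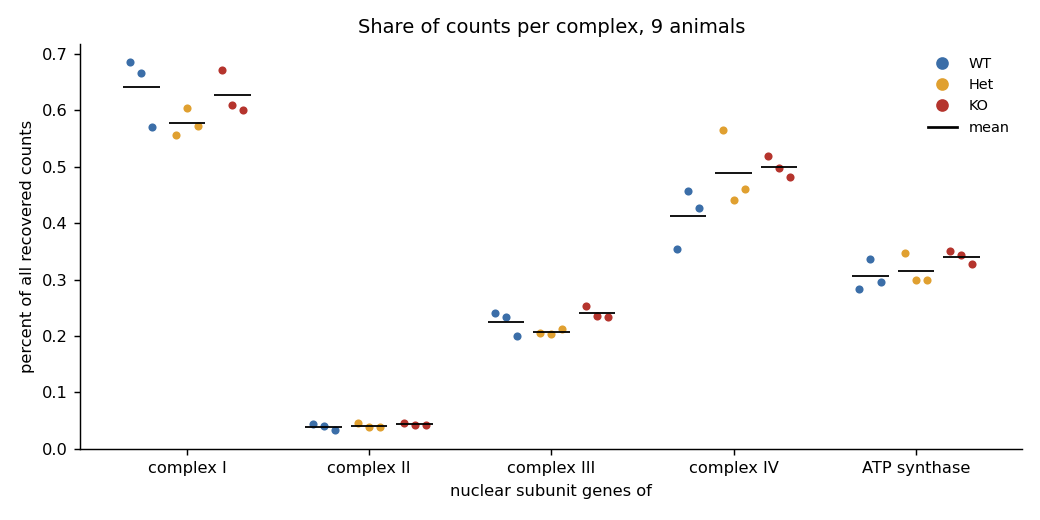
Share of all recovered counts (percent) taken by the nuclear subunit genes of each complex, with 1 point per animal and a bar at the mean of the 3 animals of each genotype. For complex IV the KO points (0.482% to 0.520%) lie above the WT points (0.355% to 0.457%).

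Several subunit genes had widely different values in animals of the same genotype. For 11 of the 81 genes (13.6%) the highest value plus 1 was over 5 times the lowest plus 1 within a genotype, compared with 23.8% of 14865 genes, and for 8 genes (9.88%) it was over 10 times, compared with 17.3%. Atp5d (chromosome 10, 80138632 to 80145818), the delta subunit of the central stalk of the ATP synthase, had 23.5, 739.9 and 734 in WT, 11.3, 825 and 38.1 in Het, and 571, 644 and 50.05 in KO. Each genotype thus held animals at over 500 and animals near or below 50.05. Atp5g1, 1 of 3 genes for the same c subunit of the membrane ring, had 19.8, 288 and 258 in WT, 189, 268 and 37.0 in Het, and 37.8, 32.9 and 292 in KO. The other genes for this subunit did not show such a split: Atp5g3 had 527 to 1464 and Atp5g2 had 74.3 to 139.7 over the 9 animals. The animals low in Atp5d and in Atp5g1 were the same for WT replicate 1 and Het replicate 3 and differed for the rest. Cox7a2, the widely expressed form of COX7A, had 3757 in Het replicate 1 and 579 to 1275 in the other 8. Cox4i1, the main COX4 form, had 378 in Het replicate 1 and 1263 to 2188 in the others. Whether reads of near-identical copies were split between loci was not tested for these genes.

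**Figure D4:**
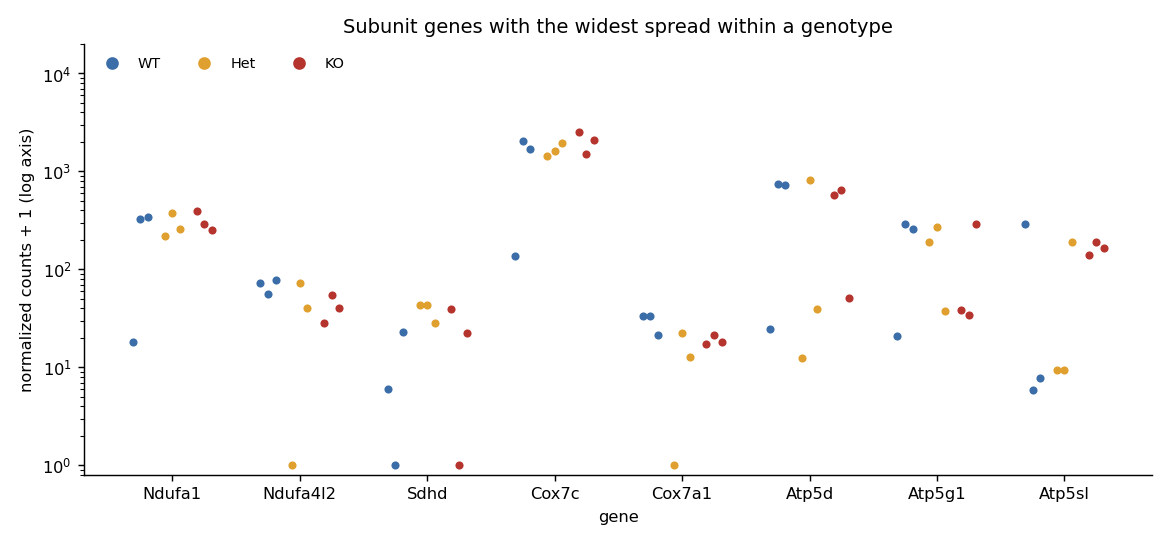
Normalized counts plus 1 (log axis) of the 8 subunit genes whose highest and lowest values differ over 10-fold within a genotype, with 1 point per animal in WT, Het and KO. Atp5d points fall at 571 to 825 in some animals and at 11.3 to 50.05 in others of each genotype.

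The libraries differed in a way that followed base composition. In WT replicate 1, 15 of the 81 genes lay over 2-fold below their median of the 9 animals, among them Cox7c, Cox7b2, Ndufa1, Ndufa4, Sdhc and Atp5j, and their last 300 transcript bases had a median GC content of 37.0%. The 60 genes within 2-fold had 48.7%, and the 6 genes over 2-fold above, among them Cox6b2, Ndufa5 and Ndufa11, had 52.8%. In Het replicate 1, the 7 genes over 2-fold below had 53.0% and the 73 within 2-fold had 45.3%. Across the 81 genes, the Spearman correlation of the deviation with this GC content was 0.60 in WT replicate 1 and −0.58 in Het replicate 1, and −0.44 to 0.29 in the other 7. All points of a library share its preparation and depth, so these values are descriptions. Over all 12697 protein-coding genes they were 0.26 and −0.32.

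The fold changes followed the same feature. The correlation of the log2 fold change with GC content over the 81 genes was −0.58 in KO against WT and −0.39 without WT replicate 1. In Het against WT it was −0.69, −0.38 without WT replicate 1 and −0.52 without Het replicate 1. In KO against Het it was 0.24, and −0.15 without Het replicate 1. Over all 12697 protein-coding genes the values, in the same order, were −0.28 and −0.23, then −0.32, −0.25 and −0.21, then 0.02 and −0.15. The 4 genes at an unadjusted p-value under 0.05 in KO against WT had 57.7% (Ndufv3, Ndufb7 and Ndufa11) and 59.0% (Ndufa4l2). With a trend on GC content removed from each library, no gene of the 81 had an unadjusted p-value under 0.05 in this comparison, the median was −0.03, and Ndufv3, Ndufb7 and Cox6b2 had log2 fold changes of −0.42, −0.41 and −0.50. Genotype and library GC trend are not independent here. The correlation of the deviation with GC content was 0.60, 0.19 and 0.16 in the WT libraries. It was −0.58, 0.29 and −0.27 in Het and −0.35, 0.12 and −0.44 in KO. The part of genotype and of GC trend in these differences was not tested.

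**Figure D5:**
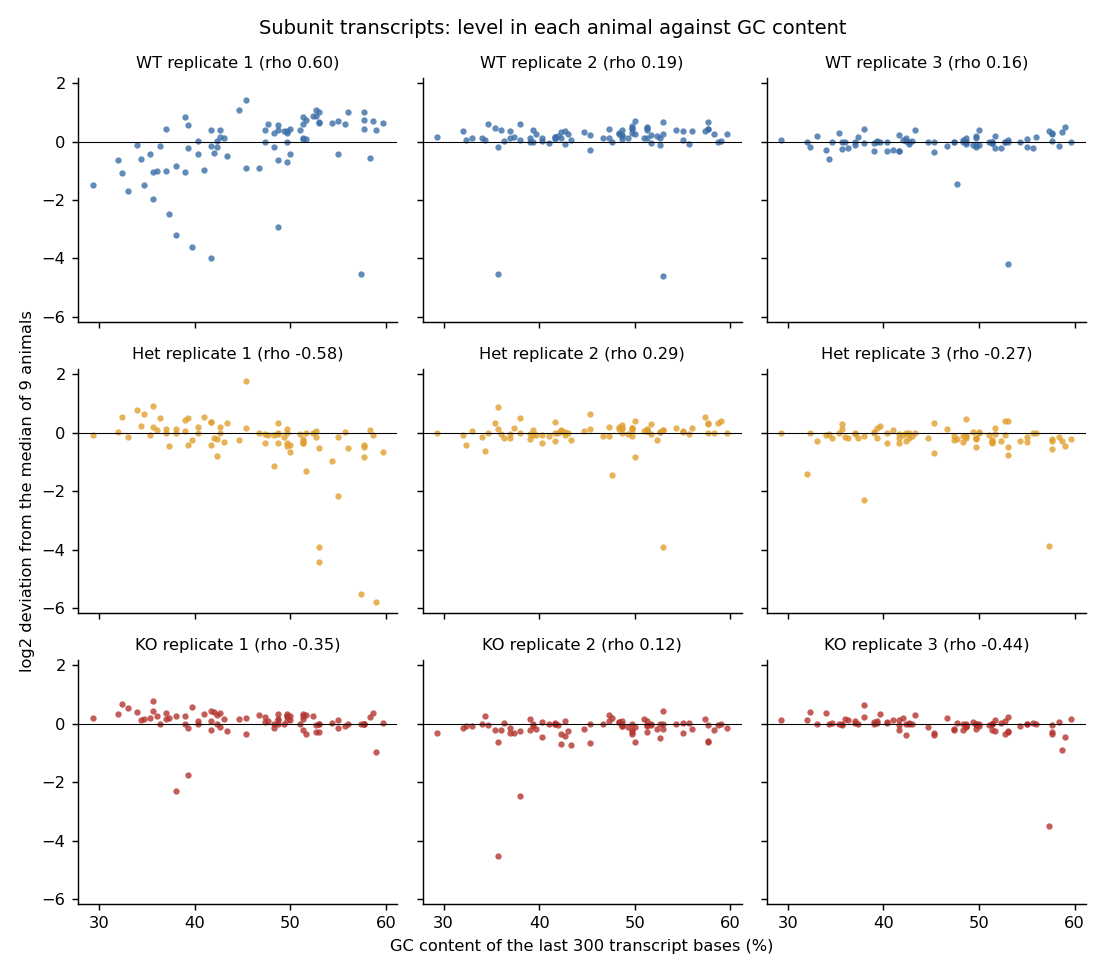
Log2 deviation of each of the 81 subunit genes from its median over 9 animals (y axis) against the GC content of its last 300 transcript bases in percent (x axis), 1 panel per animal, with Spearman's rho. The points climb with GC content in WT replicate 1 (rho 0.60) and descend in Het replicate 1 (rho −0.58).

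Genes that serve these complexes were read for comparison, from lists of known function. None of the genes of the lists below passed the cutoffs in any comparison. Of the 10 mitochondrially encoded subunits in the table, 8 had a higher and 2 a lower mean in KO than in WT (median log2 fold change 0.33), 0 at an unadjusted p-value under 0.05. Their summed level was 78134 to 87965 normalized counts in WT, 90005 to 93499 in Het and 85943 to 110765 in KO, where the 84 nuclear genes summed to 60367 to 70849, 57415 to 60816 and 56634 to 67764 in this order. mt-Co2, a catalytic-core subunit of complex IV, had 2685 in WT replicate 1 and 8623 to 10583 in the other 8. The values of mt-Nd1, mt-Nd3, mt-Nd6 and mt-Cytb were also lowest in that animal, at 11738.5, 577, 735 and 3974. That of mt-Nd4 was highest there, at 26187. The 3 cytochrome genes of the list (Cycs, Cyct and Cyc1) all had higher means in KO. Of the assembly factors, 13 of complex I had a median log2 fold change of 0.09 (8 higher, 5 lower), 4 of complex II 0.56 (3 higher), 6 of complex III −0.35 (5 lower), 17 of complex IV −0.05 (11 lower, 1 of them at an unadjusted p-value under 0.05) and 5 of the ATP synthase −0.13 (3 lower). In complex II, the factors Sdhaf2, Sdhaf3 and Sdhaf4 were lowest in WT replicate 1 (37.1, 16.1 and 89.1), and Sdhaf1 was not (118). No list median in this paragraph was computed without WT replicate 1. The 1 complex IV factor at an unadjusted p-value under 0.05 was Cmc2. It had 246, 190 and 96.6 in WT, 109, 209 and 114 in Het, and 29.2, 28.1 and 38.4 in KO. All KO animals lay below all WT and all Het animals for Cmc2. The log2 difference of KO was −2.35 from WT (SE 0.39, limma adjusted p = 0.349) and −2.09 from Het (SE 0.31, limma adjusted p = 0.356). Cyct, the testis cytochrome c, had 135, 418 and 399 in WT, 739, 395 and 429 in Het, and 606, 470.2 and 522 in KO (log2 difference 0.91, SE 0.46, limma adjusted p = 0.616), and its log2 difference was 0.38 without WT replicate 1. The regulators of mitochondrial biogenesis, among them Ppargc1a, Nrf1 and Gabpa, had 8 of 12 genes higher and 4 lower (median 0.31), with 0 at an unadjusted p-value under 0.05. Of these regulators, Esrra, Pprc1, Nrf1, Gabpa, Tfb1m and Tfb2m were lowest in WT replicate 1, while Tfam and Polrmt were highest there. The summed level of the 12 regulators was nonetheless lower in KO, at 2823 to 3079 in WT, 2213 to 2903 in Het and 1894 to 2688 in KO. Most of this sum was Tfam, with 2501, 1994 and 2021 in WT, 1385, 1862 and 2110 in Het, and 1828, 988 and 1771 in KO. Its log2 difference in KO against WT was −0.55 (SE 0.28, limma adjusted p = 0.616).

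Markers of the cell types of the testis were read in the same libraries. The 4 markers of elongating spermatids were all lower in KO than in WT, with summed levels of 233289 to 249362 in WT, 179063 to 214894 in Het and 123388 to 199672 in KO. Of 7 markers of round spermatids 6 were lower, and their sum was 7001 to 9163 in WT, 5339 to 7099 in Het and 3343 to 5703 in KO. The 7 tested markers of spermatocytes were all higher in KO, with sums of 4598 to 6455 in WT, 4808 to 7649 in Het and 7410 to 8330 over 8 markers in KO. No marker passed the cutoffs. Sums of Leydig cell markers (2197 to 3604 in WT, 2053 to 2985 in KO), Sertoli cell markers (2485 to 3846 and 2254 to 5022), spermatogonial markers (236 to 428 and 240 to 275), macrophage markers (241 to 325 and 215 to 262), erythrocyte markers (927 to 1243 and 853 to 1199.9) and peritubular smooth muscle markers (294 to 480 and 259 to 420) overlapped between KO and WT. Among the subunit genes, Cox6b2 was lower in KO in the same animals, whereas Cox8c and Cox7b2 were not. The part of cell makeup in the subunit values was not tested.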

How the data were processed

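Testis RNA of 9 mice, 3 each of WT, Het and KO, was sequenced as QuantSeq 3′ libraries, and groups and replicate numbers were taken from the sample titles. The authors trimmed reads with Trim Galore 0.4.5, aligned them to GRCm38 with HISAT2 2.1, counted genes with StringTie 1.3.3 and deposited a signal table in which counts per gene were scaled by 1 DESeq2 size factor per library. In each library 100% of values were whole multiples of 1 step (tolerance 0.01), so counts were recovered. These are StringTie estimates, and libraries held 3375546 to 4287335 of them, which limits precision for low genes.

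The 84 genes, the lists and the tests were chosen with earlier results of these data known. Comparisons used limma 3.58.1 (eBayes with trend, R 4.3.3) on log2(value + 1) for genes reaching 10 normalized counts in 3 or more of the samples compared, with Benjamini-Hochberg adjustment over all genes tested. Fold changes understate the change of low genes on this scale. The samples are taken as separate animals, which the labels do not state, and p-values measure the spread between them. Whole libraries were not duplicates: 35.1% to 71.1% of genes differed by over 2 Poisson standard deviations within a genotype.

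Named genes were every gene called, up to 5 with the highest and lowest fold change per comparison, the isoform pairs, the highest gene per complex, and up to 6 with the largest spread within a genotype. Alternatives were DESeq2 1.42.0 and edgeR 4.0.16 on recovered counts (for KO against WT, 96 and 5 genes called of all genes, 0 and 0 of the subunit genes), TMM factors, total counts, other filters and pseudocounts, all 9 samples in 1 fit, a replicate block, no fold change cutoff, each replicate left out, and shares without the 20 highest genes. A GC trend removed per library (lowess on the last 300 transcript bases, GENCODE vM21) and leaving out WT replicate 1 and Het replicate 1 together were added after seeing the data. The calculations were tested on simulated data. List members Cox16, Cox17, Sco2, Pet117, mt-Nd4l, mt-Co3 and mt-Atp6 were not analysed here. Figures were drawn with matplotlib 3.10.9 in Python 3.11.15. Results for 1 of the subunit genes are not reported here.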

Additional observations from a re-analysis of the deposited data

How the results depend on the processing

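The count of subunit genes past the cutoffs was 0 in all 3 comparisons under each alternative run, except 1 (Atp5sl) in KO against WT without WT replicate 1, so that leaving out single animals gave 0 to 1 there. Counts at an unadjusted p-value under 0.05 moved more. In KO against WT they went from 4 to 2 with a replicate block and to 5, with only Ndufv3 shared, with total counts per library. They were 0 with the GC trend removed and 0 to 6 without single animals. In Het against WT they went from 3 to 9 with all 9 samples in 1 fit, 1 with a replicate block, 1 with the GC trend removed, 1 without both WT replicate 1 and Het replicate 1, and 0 to 12 without single animals. In KO against Het they went from 2 to 0 with all 9 samples in 1 fit and 1 to 4 without single animals. The median log2 fold change of the subunit genes was −0.13, −0.18 and 0.08 in the 3 comparisons. With total counts per library it was 0.071 and −0.021 in the first 2, and with the GC trend removed −0.034 and −0.093. Total counts put 50 of 81 subunit genes above 0 in KO against WT, in place of 30, and 38 of 80 in Het against WT, in place of 30. Without single animals the median ranged from −0.21 to −0.07, from −0.28 to −0.14 and from 0.013 to 0.16.

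Signs of single genes changed without single animals. In KO against WT, Ndufa1 ranged from −0.12 (without WT replicate 1) to 1.99, Sdhc from −0.077 (without WT replicate 1) to 1.48, and Sdhd from −0.29 (without WT replicate 2) to 2.53. In Het against WT, Ndufa1 ranged from −0.26 to 1.84 and Cox7c from −0.17 to 1.77, both lowest without WT replicate 1. There Sdhc reached 1.58, and without both WT replicate 1 and Het replicate 1 Ndufa1, Cox7c and Sdhc were at −0.088, −0.072 and −0.072. In KO against Het, Ndufa4l2 ranged from −0.44 to 2.65 and Cox7a2 from −1.21 to 0.025, with the sign changed without Het replicate 1. The difference in the Cox6b2 share between Het and WT, 0.54 percentage points, ranged from −3.17 to 5.79 without single animals. The cause of these changes was not tested. Same-numbered animals correlated at −0.14 to 0.19 in their deviations over 14865 genes, and different-numbered animals at −0.24 to 0.19. These ranges do not settle whether animals of the same number belong together. The replicate block called 0 subunit genes, as did the main fit, so there was no call that it could change. Pairing by number cannot alter a difference in mean isoform share, so it was no check of those shares. Over all genes, calls numbered 5, 0 and 8 in limma, 96, 31 and 38 in DESeq2, 5, 0 and 5 in edgeR, and 0 in each comparison with the replicate block. Leaving 2 animals in a group limits these fits, and the counts per library limit the precision of genes with few counts.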
